A study of Homo sapiens with 17 samples.

Results

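Contactins and neural immunoglobulin adhesion genes were followed through retinoic acid treatment of a neuroblastoma cell line. The set holds 10 genes, CNTN1 to CNTN6, NCAM1, NCAM2, L1CAM and NRCAM, taken by symbol from the 60662 genes that the table of cultured cells and the table of tumors share. All 10 were present in both tables, and 9 had enough counts to be tested in every comparison. The exception was CNTN6.

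All libraries came from CHP-134, an established human neuroblastoma line with amplified MYCN, and all groups therefore share that background. In culture, cells received the solvent DMSO, or all-trans retinoic acid (ATRA, 2 µM), and were collected after 1, 3 or 6 days of it, with 2 libraries in each group. The labels place the DMSO cells at day 0, and no DMSO culture was sampled at 1, 3 or 6 days. In a difference from DMSO or between times, ATRA therefore cannot be told apart from time in culture. Tumors were grown under the skin of immunodeficient nude mice from CHP-134 cells carrying a luciferase label. RA tumors (n = 4) came from mice dosed by oral gavage 2 times a day with 13-cis-retinoic acid, a stereoisomer of ATRA, at 25 mg/kg, and control tumors (n = 5) from mice without the drug, which the study's text calls vehicle-treated and the sample labels call untreated. By the study's text, dosing was planned over weeks, and mice left the study when their tumors progressed. Tumors assayed for the drug were collected within weeks of the last treatment. The labels do not give the treatment time or collection time of each sequenced tumor. Culture cells collected at 6 days are those that had survived the drug. Each condition rests on 1 cell line. The study's text calls its culture replicates independent without saying at which step they were separate, so p-values in culture measure the spread between these samples, part of which may be technical. Cells and tumors were also prepared with different ribosomal-depletion library kits, so a difference between a tumor and a culture group cannot be told apart from a difference between kits.

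Contactins are neuronal cell surface proteins of the immunoglobulin superfamily that are held in the membrane by a lipid anchor. They bind other adhesion proteins and matrix proteins and take part in axon growth, fasciculation and the organization of myelinated axons. NCAM1 and NCAM2 are neural cell adhesion molecules, NCAM1 being the main carrier of polysialic acid, a sugar chain that loosens contacts between cells. L1CAM and NRCAM are transmembrane members of the L1 family that bind ankyrins through their cytoplasmic tails. NCAM1 and L1CAM are widely used surface markers of neuroblastoma.

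By the GENCODE annotation of hg38, the build of the files, the genes lie on 7 chromosomes and most are long. CNTN5 (chr11:99020949-100358885, plus strand) covers 1337.9 kb and CNTN4 (chr3:2098813-3057959, plus) 959.1 kb, with CNTN6 (chr3:1092658-1404217, plus) beside it and CNTN3 (chr3:74262568-74614659, minus) on the same chromosome. NCAM2 (chr21:20998409-21543329, plus), CNTN1 (chr12:40692439-41072415, plus), NCAM1 (chr11:112961275-113278436, plus) and NRCAM (chr7:108147623-108456717, minus) cover 309.1 to 544.9 kb. The short genes are CNTN2 (chr1:205042937-205078289, plus), with 35.4 kb, and L1CAM (chrX:153861514-153886173, minus), with 24.7 kb. All 10 encode proteins, from canonical transcripts of 18 to 33 exons and 4065 to 8041 bases.

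Total counts per library were 31607051 to 39422897 in culture and 17266558 to 29078889 in tumors, and the biological coefficient of variation was 2.65% in culture and 13.9% in tumors. Of the markers of adrenergic neuroblastoma cells, the transcription factor gene HAND2 had 129 to 145 CPM (counts scaled to a common library total) in RA tumors, 129 to 150.4 CPM in control tumors and 199 to 297 CPM over all culture groups. DBH, the enzyme that makes noradrenaline, was low throughout, at 2.50 to 7.16 CPM in RA tumors, 1.42 to 5.35 CPM in control tumors and at most 3.70 CPM in culture. Markers of endothelium summed to at most 4.48 CPM and those of leukocytes to at most 3.89 CPM in any library, while fibroblast markers, which the cultured cells also expressed, ranged from 25.9 to 119 CPM over all groups. These are counts of human genes, and the tumors also hold mouse tissue. The sums therefore do not measure how much endothelium, leukocytes or fibroblasts the tumors held. The summed level of 8 Schwann cell markers moved with treatment. It was 8.78 to 9.44 CPM with DMSO, 11.8 to 12.5 CPM at 1 day of ATRA, 16.9 to 18.3 CPM at 3 days and 38.5 to 42.5 CPM at 6 days, and 18.4 to 27.0 CPM in RA tumors against 9.48 to 13.95 CPM in control tumors. Most of that sum at 6 days was NGFR, a receptor that neuroblastoma cells share, at 24.4 to 26.8 CPM, and the defining Schwann cell gene SOX10 was at 0 in all culture libraries, at 1.36 to 1.89 CPM in RA tumors and at 0.890 to 2.21 CPM in control tumors. The part of such cells in the results was not tested.

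Levels below are CPM after TMM scaling within the table of cells or the table of tumors, unless another scale is named. A gene was called changed when its adjusted p, from edgeR's quasi-likelihood test with Benjamini-Hochberg adjustment over all genes tested, was under 0.05 and its fold change above 2. Errors of log2 fold changes are SEs.

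The first question was which of these genes differed between ATRA and day-0 DMSO cells in culture, and when. After 1 day, 2 of the 9 tested genes were called, CNTN2 up and CNTN5 down, where 2.74% of all genes tested were called. After 3 days 5 were called, CNTN2, CNTN3 and NCAM2 up and CNTN1 and CNTN5 down, against 7.87% of all genes. After 6 days 6 were called, CNTN1, CNTN2, CNTN3, NCAM2 and L1CAM up and CNTN5 down, against 31.2% of all genes. The median log2 fold change at 6 days was 1.27 over these 9 genes and 0.04 over all genes tested. NCAM1, CNTN4 and NRCAM stayed under the fold limit at all 3 times.

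**Figure D1:**
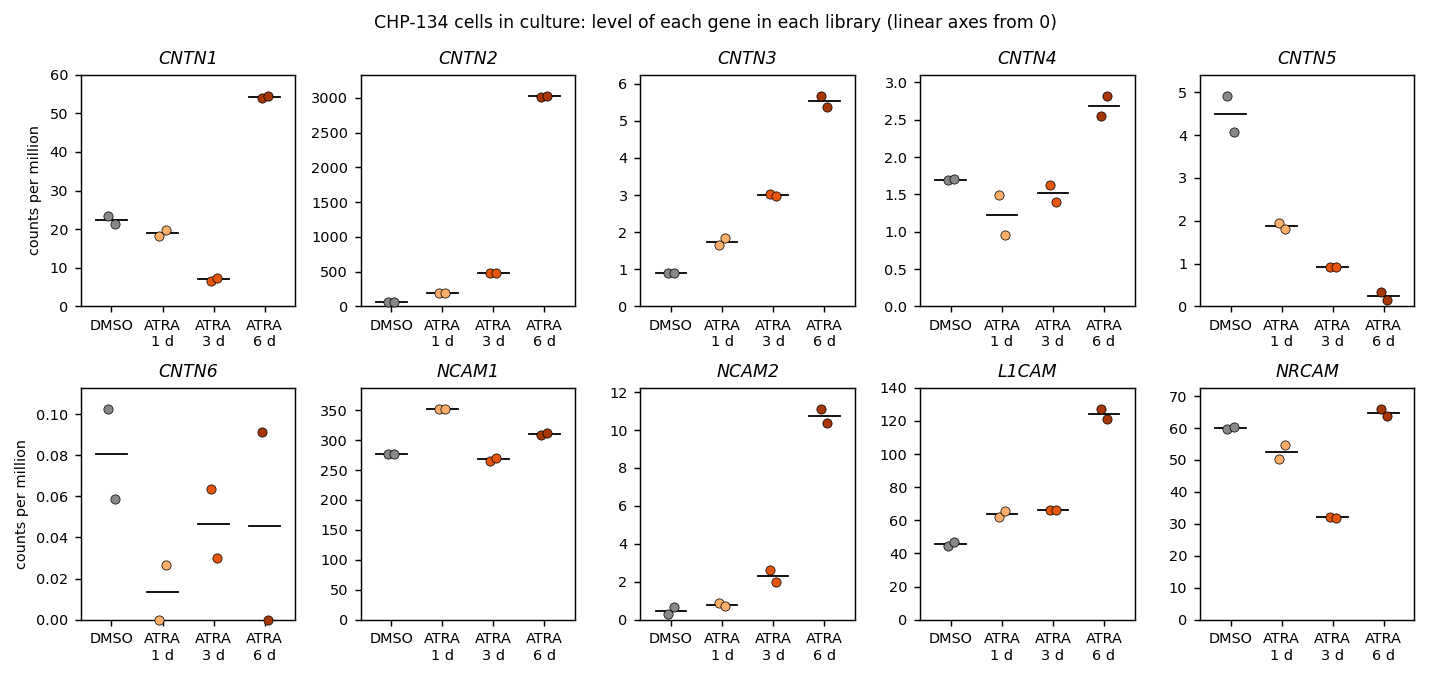
Level of each of the 10 genes in CPM (linear vertical axes starting at 0) in each culture library, with DMSO at the left and 1, 3 and 6 days of ATRA to its right. Each dot is a library and each bar the mean of 2. CNTN2 reaches 3018 and 3032 CPM at 6 days, CNTN5 sinks at each time, and CNTN1 and NRCAM are lowest at 3 days.

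CNTN2, also known as TAG-1 or axonin-1, marks growing axons in development and later joins the complex beside the nodes of Ranvier. It had 57.1 and 56.8 CPM with DMSO, 190 and 191 CPM at 1 day of ATRA, 480.3 and 478 CPM at 3 days and 3018 and 3032 CPM at 6 days. Replicates differed by far less than any step between times, and no group overlapped another. The log2 fold change against DMSO was 1.74 ± 0.02 at 1 day (3.34-fold, adjusted p = 2.57e-35), 3.07 ± 0.02 at 3 days (8.42-fold, adjusted p = 2.31e-44) and 5.73 ± 0.02 at 6 days (53.1-fold, adjusted p = 2.23e-53). The step from one time to the next was also called each time, 2.52-fold for 3 days over 1 day (adjusted p = 3.95e-34) and 6.31-fold for 6 days over 3 days (adjusted p = 2.02e-44).

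CNTN5, a contactin known from the auditory system, went the other way. It had 4.92 and 4.08 CPM with DMSO, 1.95 and 1.81 CPM at 1 day, 0.925 CPM in each library at 3 days and 0.334 and 0.147 CPM at 6 days. The 6-day values stand for 11 and 5 expected counts, against 192 and 139 with DMSO. CNTN5 was 2.40-fold lower than with DMSO at 1 day (adjusted p = 1.37e-06), 4.86-fold lower at 3 days (adjusted p = 2.34e-11) and 18.6-fold lower at 6 days (log2 fold change -4.22 ± 0.27, adjusted p = 1.83e-16). Without ATRA 6-day replicate 1 the log2 fold change was -4.91, and without ATRA 6-day replicate 2 it was -3.74, both called. It was the only gene of the set called down at 6 days.

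The promoters of CNTN2, which rose most, and of CNTN5, which fell, are shown with that of CNTN1, because the retinoic acid receptor binds its target genes as a dimer at repeats of the hexamer AGGTCA. Windows run from 250 bases before to 50 bases after each start site listed by RefSeq (GRCh38.p14), 5′ to 3′ on the gene's own strand, and all 3 genes lie on the plus strand. Capitals mark AGGTCA and the E-box CANNTG, the motif of MYC and other basic helix-loop-helix factors, each searched on both strands. The CNTN1 window shown starts at a RefSeq start site inside the annotated span of the gene.
CNTN2 chr1:205042962-205043261: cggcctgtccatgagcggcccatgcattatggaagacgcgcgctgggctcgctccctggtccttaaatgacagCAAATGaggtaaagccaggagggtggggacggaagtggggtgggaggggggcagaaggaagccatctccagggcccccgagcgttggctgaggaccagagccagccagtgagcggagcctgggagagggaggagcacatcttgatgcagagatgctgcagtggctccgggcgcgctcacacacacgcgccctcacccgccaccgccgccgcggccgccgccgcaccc
CNTN5 chr11:99020699-99020998: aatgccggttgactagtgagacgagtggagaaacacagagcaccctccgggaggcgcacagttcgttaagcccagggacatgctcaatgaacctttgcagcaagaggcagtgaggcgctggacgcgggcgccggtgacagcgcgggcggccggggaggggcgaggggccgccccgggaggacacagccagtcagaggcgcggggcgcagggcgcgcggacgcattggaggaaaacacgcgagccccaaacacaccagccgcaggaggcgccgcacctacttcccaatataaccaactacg
CNTN1 chr12:40827934-40828233: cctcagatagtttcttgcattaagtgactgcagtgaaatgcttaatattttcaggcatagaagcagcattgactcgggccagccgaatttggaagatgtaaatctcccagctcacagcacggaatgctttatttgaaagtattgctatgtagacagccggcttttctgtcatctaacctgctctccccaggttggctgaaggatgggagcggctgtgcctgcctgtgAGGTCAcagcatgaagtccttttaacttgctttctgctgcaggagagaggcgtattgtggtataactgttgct

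RefSeq windows were found for 9 of the 10 genes, 15 windows in all, and NCAM1 had none. AGGTCA was present in 1 of the 15, the CNTN1 window above, against 13.8% of 35114 windows of the same length over all genes. Direct repeats of AGGTCA with a spacer of 1, 2 or 5 bases were in none of the 15 and in at most 0.0228% of all windows. The E-box was in 12 of the 15, against 68.7% of all windows, and its MYC form CACGTG, which is counted within it, was in 1 of the 15, that of CNTN3, against 7.26%. Neither AGGTCA nor an E-box was found in the CNTN5 window. A match describes the letters of these windows only.

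NCAM2, the lipid-anchored or transmembrane paralog of NCAM1 best known from olfactory axons, came next to CNTN2 in fold change at 6 days. Its level was 0.674 and 0.282 CPM with DMSO, 0.718 and 0.881 CPM at 1 day, 2.65 and 1.97 CPM at 3 days and 10.4 and 11.1 CPM at 6 days. The rise was called at 3 days (4.90-fold, adjusted p = 1.99e-08) and at 6 days (22.9-fold, log2 fold change 4.51 ± 0.22, adjusted p = 7.32e-18) but not at 1 day (1.71-fold, adjusted p = 0.0732). The DMSO values rest on 11 to 23 expected counts per library, and without DMSO replicate 2 the 1-day difference was called as well (log2 fold change 1.49, adjusted p = 0.00488). The log2 fold changes at 3 and 6 days were 3.01 and 5.22 without DMSO replicate 2 and 1.76 and 3.97 without DMSO replicate 1, and all of these were called.

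CNTN3, a contactin of neurons with few known partners, climbed more evenly. It had 0.898 and 0.909 CPM with DMSO, 1.65 and 1.84 CPM at 1 day, 3.03 and 2.98 CPM at 3 days and 5.68 and 5.38 CPM at 6 days. Its log2 fold change was 0.95 ± 0.21 at 1 day, just inside the 2-fold limit (adjusted p = 0.000624), then 1.73 ± 0.20 at 3 days (adjusted p = 3e-09) and 2.61 ± 0.18 at 6 days (6.10-fold, adjusted p = 2.54e-15). Without ATRA 1-day replicate 1 the value at 1 day was 1.02 and was called (adjusted p = 0.00153). Its 6-day level rested on 187 and 183 expected counts, against 35 and 31 with DMSO.

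L1CAM, an adhesion molecule of growing axons, had 44.6 and 46.7 CPM with DMSO, 65.6 and 62.1 CPM at 1 day, 66.3 CPM in each library at 3 days and 121 and 127 CPM at 6 days. It was higher than with DMSO at all 3 times, by 1.40-fold at 1 day (adjusted p = 1.15e-12), 1.45-fold at 3 days (adjusted p = 2.86e-14) and 2.72-fold at 6 days (log2 fold change 1.45 ± 0.04, adjusted p = 4.6e-29), and the last alone passed the fold limit. The step of 6 days over 3 days, at 1.88-fold (adjusted p = 7.13e-23), was inside it, and with upper-quartile scaling it was called (log2 fold change 1.05), as was that of CNTN3 (1.02).

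CNTN1 and NRCAM were lowest at 3 days. CNTN1, the contactin that pairs with CASPR at the paranodal junction, had 23.4 and 21.5 CPM with DMSO, 18.2 and 19.8 CPM at 1 day, 6.63 and 7.31 CPM at 3 days and 53.996 and 54.6 CPM at 6 days. At 3 days it was 3.22-fold lower than with DMSO (log2 fold change -1.69 ± 0.07, adjusted p = 9.84e-21) and at 6 days 2.42-fold higher (log2 fold change 1.27 ± 0.05, adjusted p = 9.47e-22). The step of 6 days over 3 days was 7.78-fold (adjusted p = 3.62e-30), beside 6.31-fold for CNTN2 over the same interval. The direction of the CNTN1 difference therefore depended on the time at which the culture was sampled.

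NRCAM, an L1-family molecule of nodes of Ranvier and of axon guidance, followed the same course with smaller steps. It had 59.7 and 60.3 CPM with DMSO, 54.7 and 50.3 CPM at 1 day, 32.04 and 31.95 CPM at 3 days and 63.7 and 66.0 CPM at 6 days. It was 1.87-fold lower at 3 days (log2 fold change -0.91 ± 0.04, adjusted p = 4.78e-19) and 1.08-fold higher at 6 days (adjusted p = 0.0137), both inside the fold limit. The step of 6 days over 3 days was called at 2.03-fold (adjusted p = 3.35e-21), and fell to a log2 fold change of 0.98 without the filter on low counts and to 0.99 without ATRA 6-day replicate 1, just under the limit in each case.

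NCAM1 and CNTN4 were not called between any of the culture groups compared. NCAM1 had 276 and 277 CPM with DMSO, 352 and 351 CPM at 1 day, 266 and 270.5 CPM at 3 days and 309 and 312 CPM at 6 days. The 1-day value was 1.27-fold above DMSO (adjusted p = 1.78e-15) and the 6-day value 1.12-fold above it (adjusted p = 2.25e-08), both small beside the fold limit, while at 3 days it was 1.03-fold below (adjusted p = 0.101). CNTN4, which binds amyloid precursor protein, had 1.69 and 1.70 CPM with DMSO, 1.49 and 0.958 CPM at 1 day, 1.63 and 1.40 CPM at 3 days and 2.55 and 2.82 CPM at 6 days. It was 1.58-fold higher at 6 days (log2 fold change 0.66 ± 0.21, adjusted p = 0.00416) and did not pass the adjusted p at 1 or 3 days (0.132 and 0.589).

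CNTN6, which neighbors CNTN4 on chromosome 3, was barely detected. It had 0 to 4 expected counts in each of the 17 libraries and 0 in 6 of them, and a count of 0 allows a level of up to 0.0791 to 0.173 CPM at the depths of these 6 libraries. No comparison was made for it.

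Between consecutive times, 4 of the 9 genes were called for 3 days over 1 day (CNTN2 and NCAM2 up, CNTN1 and CNTN5 down, against 4.09% of all genes tested). For 6 days over 3 days 5 were called (CNTN1, CNTN2, NCAM2 and NRCAM up, CNTN5 down, against 21.1% of all genes). NCAM2 was 2.87-fold higher at 3 days than at 1 day (adjusted p = 5.63e-06) and 4.67-fold higher at 6 days than at 3 days (adjusted p = 7.32e-13). CNTN5 was 2.03-fold lower at 3 days than at 1 day (adjusted p = 0.000678) and 3.82-fold lower at 6 days than at 3 days (adjusted p = 9.38e-06). For 3 days over 1 day, neither NCAM2 (adjusted p = 0.135) nor CNTN5 (adjusted p = 0.111) was called when all 17 libraries shared 1 estimate of the spread. CNTN5 also came in just under the fold limit with upper-quartile scaling (log2 fold change -0.998) and without ATRA 1-day replicate 1 (-0.968). For 6 days over 3 days its log2 fold change was -2.63 without ATRA 6-day replicate 1 and -1.46 without ATRA 6-day replicate 2, called in both cases.

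Because the transcripts differ in length, the order of the genes was read per kilobase of the canonical transcript, on the TMM scale of all 17 libraries. With DMSO, NCAM1 stood far above the rest at 50.6 ± 0.0156 CPM per kilobase (SD, n = 2), followed by NRCAM at 9.53 ± 0.0729 and L1CAM at 9.46 ± 0.313, whose libraries overlapped, then CNTN2 at 7.66 ± 0.0245 and CNTN1 at 4.22 ± 0.256. The other 5 genes were below 1 CPM per kilobase. NCAM1 was still ahead at 1 day, with 63.6 ± 0.136 against 25.3 ± 0.0429 for CNTN2. CNTN2 took the lead at 3 days, with 63.0 ± 0.182 against 47.9 ± 0.651 for NCAM1, and at 6 days it reached 416 ± 2.03 against 58.1 ± 0.463 for NCAM1. Of the summed level of the 10 genes per kilobase, CNTN2 made up 79.3% at 6 days against 9.24% with DMSO, and NCAM1 11.1% at 6 days against 61.1% with DMSO.

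Lower in the order, CNTN5 held the sixth place with DMSO and the ninth at 6 days, below NCAM2, CNTN3 and CNTN4, all of which it had exceeded with DMSO. NRCAM at 10.5 ± 0.244 and CNTN1 at 10.4 ± 0.0964 CPM per kilobase overlapped at 6 days. CNTN5 and CNTN4 overlapped at 1 day, and CNTN4 and NCAM2 at 3 days. All other neighbors in the order were separated in every culture group.

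**Figure D2:**
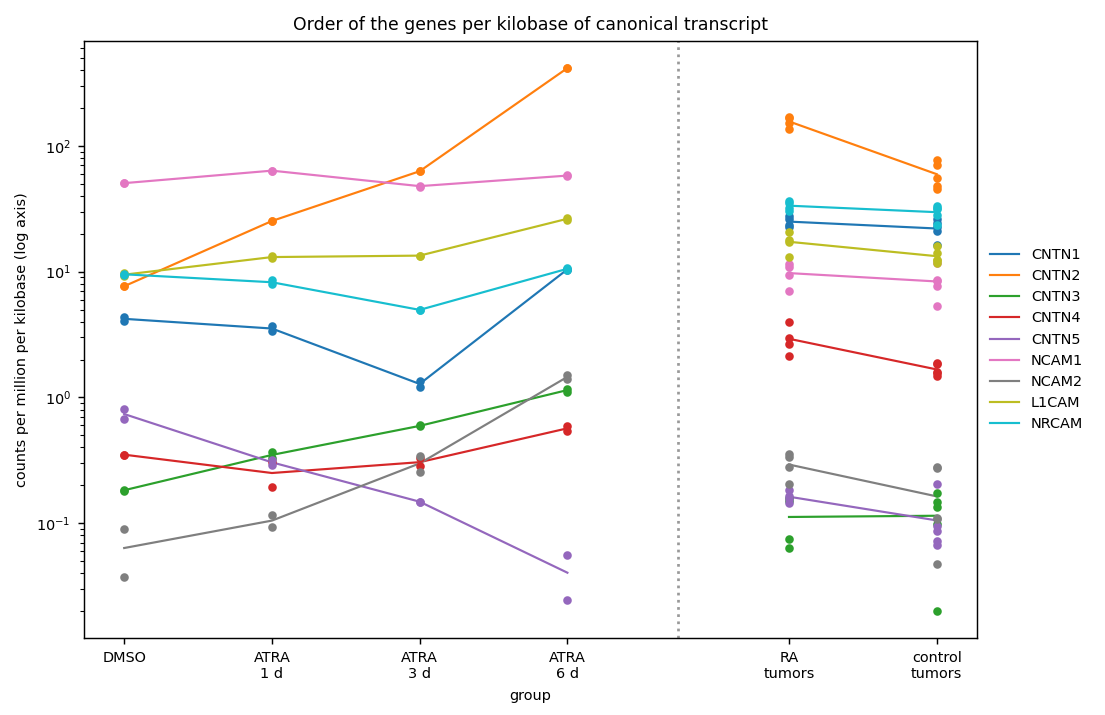
Level of 9 genes in CPM per kilobase of canonical transcript (log axis, scale of all 17 libraries) in the 4 culture groups and, right of the dotted line, RA tumors and control tumors. Dots are libraries and lines join group means. CNTN2 passes NCAM1 between 1 and 3 days and leads in both tumor groups, where NRCAM and CNTN1 also stand above NCAM1.

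In tumors the question was whether 13-cis-retinoic acid changed the same genes in the animal. Only CNTN2 was called among the 9 tested, where 0.284% of all genes tested (60 of 21098) were called. The median log2 fold change was 0.38 over these 9 genes and -0.01 over all genes tested. CNTN2 had 1445, 1271, 1408 and 1115 CPM in RA tumors, against 597, 469, 646, 382 and 400.2 CPM in control tumors. The lowest RA tumor was well above the highest control tumor, and the difference was 2.63-fold (log2 fold change 1.39 ± 0.16, adjusted p = 0.00578). The call held in each of 17 alternative fits, with log2 fold changes of 1.31 to 1.51 and adjusted p-values up to 0.0287.

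CNTN4 was the other gene of the set whose tumor groups did not overlap. The share of all genes tested whose tumor groups did not overlap was not counted. It had 14.5, 21.7, 16.1 and 11.5 CPM in RA tumors, against 8.06, 10.2, 8.58, 10.1 and 8.57 CPM in control tumors. The difference of 1.75-fold (log2 fold change 0.81 ± 0.16, adjusted p = 0.0204) was under the fold limit, and its adjusted p ranged up to 0.131 over the alternatives. CNTN4 counts were not whole numbers in any of the 9 tumor libraries, as RSEM gives where reads fit more than 1 gene or copy, and the overlapping antisense gene CNTN4-AS1 had 14.2 to 23.8 expected counts in RA tumors and 4.11 to 10.2 in control tumors, against 0 in culture. With the antisense counts added, the log2 fold change of CNTN4 was 0.81 (adjusted p = 0.0158).

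The remaining genes were not called, and their tumor groups overlapped. L1CAM had 114, 93.3, 97.4 and 70.5 CPM in RA tumors, against 86.6, 63.9, 66.6, 76.4 and 67.4 CPM in control tumors (log2 fold change 0.38 ± 0.13, adjusted p = 0.181). NCAM2 had 2.38, 2.99, 2.85 and 1.70 CPM in RA tumors, against 0.4002, 2.35, 0.918, 2.33 and 0.940 CPM in control tumors (log2 fold change 0.82 ± 0.40, adjusted p = 0.359). Of the control tumors, 3 lay below every RA tumor in NCAM2 and 2 lay within the RA range. CNTN1 averaged 150 ± 15.3 CPM in RA tumors and 132 ± 21.9 CPM in control tumors (SD, edgeR adjusted p = 0.502), and NRCAM 237 ± 20.4 CPM and 211 ± 27.8 CPM (edgeR adjusted p = 0.421). NCAM1 averaged 59.9 ± 13.0 CPM in RA tumors and 51.4 ± 14.2 CPM in control tumors (edgeR adjusted p = 0.717). CNTN5, at 0.986 to 1.26 CPM in RA tumors and 0.457 to 1.40 CPM in control tumors, and CNTN3, at 0.349 to 0.894 CPM and 0.111 to 0.975 CPM, rested on 2 to 29 expected counts per library, so that small differences were not detectable at this depth.

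**Figure D3:**
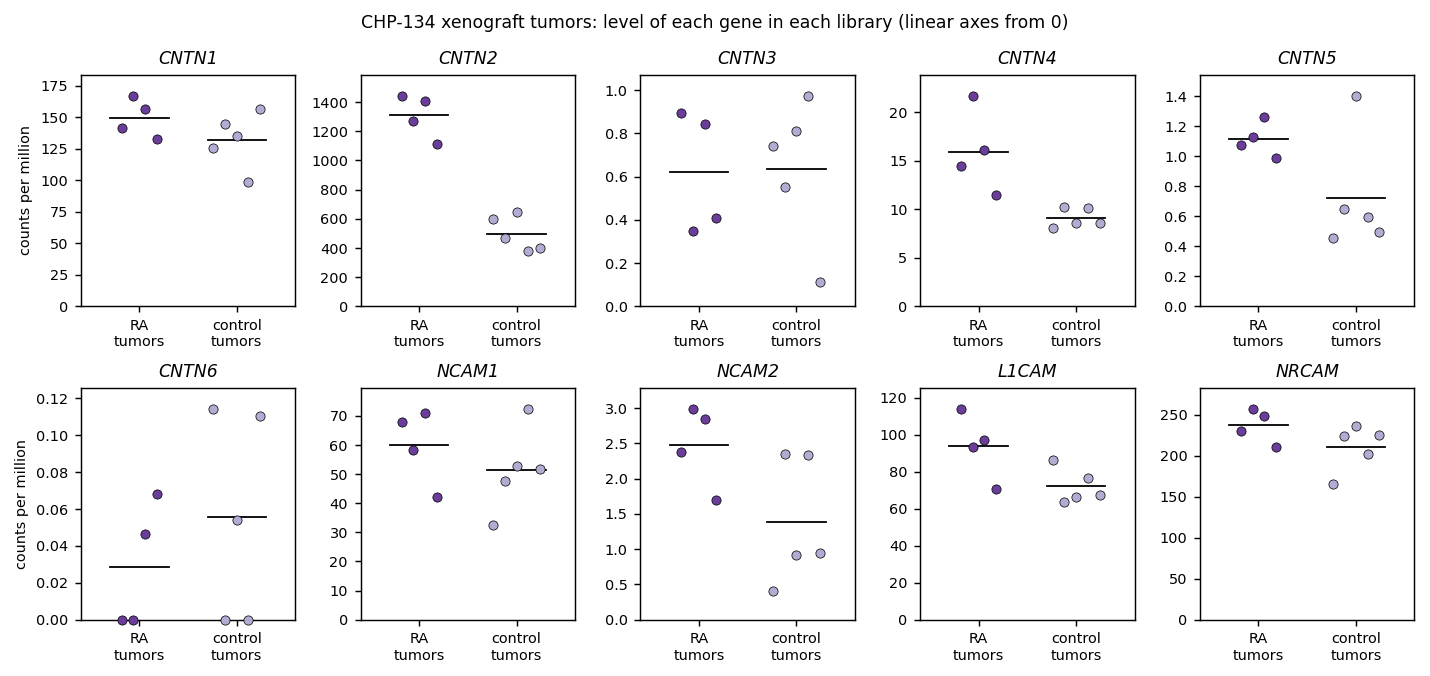
Level of each of the 10 genes in CPM (linear vertical axes starting at 0) in each tumor library, RA tumors (n = 4) left of control tumors (n = 5). Each dot is a tumor and each bar the group mean. The groups separate for CNTN2, with all RA tumors at 1115 CPM or more and all control tumors at 646 CPM or less, and for CNTN4.

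RA tumor 4, the most deeply sequenced of all tumor libraries, had the lowest level of its group for 8 of the 9 tested genes. How many of all genes were lowest in it was not counted, so this is not read as particular to these genes. Without it the log2 fold change of CNTN2 was 1.47 (adjusted p = 0.00399), that of CNTN4 0.94 (adjusted p = 0.00232) and that of L1CAM 0.50 (adjusted p = 0.0146), and CNTN2 was again the only gene of the set to be called.

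The retinoid effects in tumors and in culture were then set side by side. Drug isomer, dose, time, growth setting (a mouse or a culture dish) and library kit all differ between the arms, so the difference of effects cannot be assigned to any of them. In 1 model of all 17 libraries, the tumor effect less the 6-day ATRA effect was past the threshold for 6 of the 9 genes, against 20.9% of all genes tested. It was negative for CNTN2 (-4.37 ± 0.27 on the log2 scale, adjusted p = 2e-08), NCAM2 (-3.72 ± 0.65, adjusted p = 0.000228), CNTN3 (-2.74 ± 0.54, adjusted p = 0.000325), CNTN1 (-1.12 ± 0.19, adjusted p = 0.000117) and L1CAM (-1.10 ± 0.19, adjusted p = 0.000153). It was positive for CNTN5 (4.79 ± 0.50, adjusted p = 1.57e-07), which was 18.6-fold lower in culture and 1.53-fold higher, without a call, in RA tumors. The values of the genes with few counts moved with single libraries, to -3.19 and -4.44 for NCAM2 without DMSO replicate 1 or 2 and to 5.48 and 4.32 for CNTN5 without ATRA 6-day replicate 1 or 2. For CNTN4, NCAM1 and NRCAM the difference of effects was 0.11 ± 0.31, 0.02 ± 0.33 and 0.03 ± 0.15, and none passed the threshold.

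**Figure D4:**
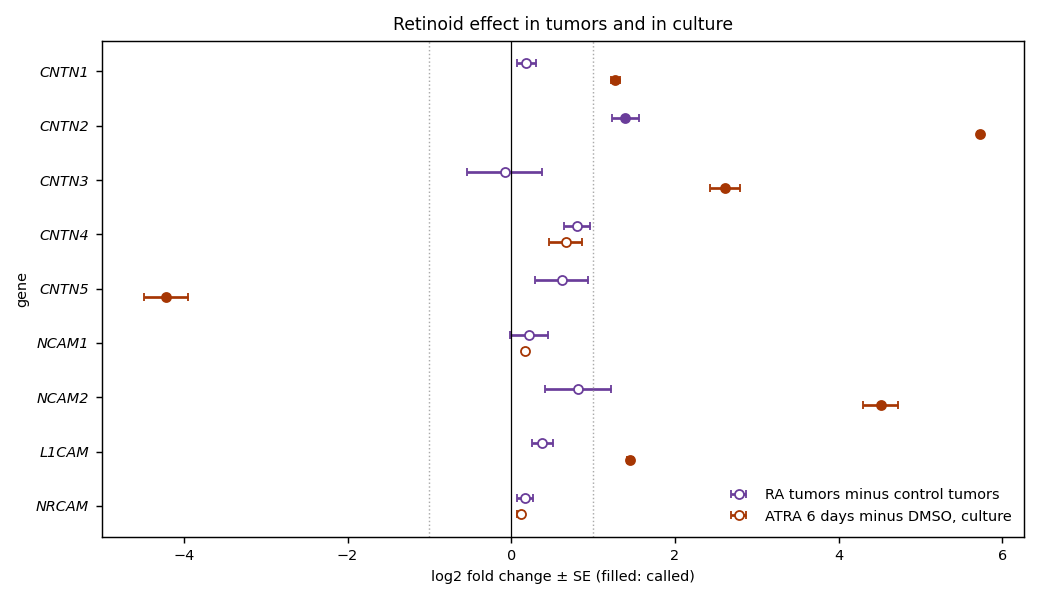
Log2 fold change (horizontal axis, ± SE) of each of the 9 tested genes in RA tumors against control tumors (purple) and at 6 days of ATRA against DMSO (brown), with filled symbols for called differences and dotted lines at the fold limit. CNTN2 is filled in both, at 1.39 and 5.73, and CNTN5 lies on opposite sides of 0.

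The last comparison was between tumors and culture, where library kit and growth setting go together. Of the 9 genes, 7 were called between control tumors and DMSO cells, against 42.9% of all genes tested. Values here are on the scale of all 17 libraries. CNTN2 was 7.79-fold higher in control tumors (log2 fold change 2.96 ± 0.21, adjusted p = 2.21e-08), CNTN1 5.23-fold (2.39 ± 0.15, adjusted p = 2.76e-10), CNTN4 4.76-fold (2.25 ± 0.23, adjusted p = 2.82e-08) and NRCAM 3.12-fold (1.64 ± 0.11, adjusted p = 1.35e-10). For CNTN1, CNTN4 and NRCAM every tumor library, treated or not, stood above every culture library. How many of all genes separate in this way was not counted, so the separation is not read as particular to these genes. NCAM2 was 2.64-fold higher (adjusted p = 0.0278), but its groups overlapped and the call was lost in 5 of 14 alternatives.

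CNTN5 and NCAM1 were lower in control tumors than in DMSO cells. CNTN5 was 6.97-fold lower (log2 fold change -2.80 ± 0.28, adjusted p = 2.48e-08). NCAM1 had 30.8 to 68.1 CPM in control tumors, against 294 and 295 CPM in DMSO cells, a 6.05-fold difference (log2 fold change -2.60 ± 0.21, adjusted p = 2.3e-07) that left no overlap. NCAM1 overlaps 3 genes on the opposite strand, and its counts were not whole numbers in 8 of the 9 tumor libraries and in none of the 8 culture libraries. The antisense gene NCAM1-AS1 held 15.3% to 16.7% as many counts as NCAM1 in RA tumors and 14.1% to 34.9% in control tumors, against at most 0.228% in culture. With the NCAM1-AS1 counts added to NCAM1 its log2 fold change between control tumors and DMSO cells was -2.32 (adjusted p = 1.08e-06). The part that the kit has in the difference was not tested.

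RA tumors and cells at 6 days of ATRA differed by a call in 8 of the 9 genes, against 41.6% of all genes tested. NRCAM (3.18-fold), CNTN1 (2.40-fold), CNTN4 (5.15-fold) and CNTN5 (3.98-fold) were higher in RA tumors, and CNTN2 (2.66-fold), CNTN3 (10.6-fold), NCAM1 (5.98-fold) and NCAM2 (4.99-fold) were lower. The log2 fold change of CNTN5 was 2.67 without ATRA 6-day replicate 1 and 1.51 without ATRA 6-day replicate 2, both called. L1CAM was 1.53-fold lower (adjusted p = 0.000558) and stayed under the fold limit. Per kilobase, the order in RA tumors was CNTN2 at 157 ± 16.6 CPM per kilobase, NRCAM at 33.5 ± 2.76, CNTN1 at 25.0 ± 2.49, L1CAM at 17.3 ± 3.16 and NCAM1 at 9.74 ± 2.04 (SD, n = 4), and the libraries of these neighbors did not overlap. In control tumors the order was the same, with CNTN2 at 59.6 ± 14.2 and NCAM1 at 8.36 ± 2.29 CPM per kilobase (SD, n = 5), except that the libraries of NRCAM and CNTN1 overlapped.

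The genes whose course over the 17 libraries was most like that of a member were found by the root mean square difference of centered log2 CPM, among 15415 protein-coding genes, for the 4 members with the widest range. For CNTN2 they were ROBO2, the axon guidance receptor for Slit proteins (0.37), CRABP1, which binds retinoic acid in the cytoplasm (0.45), and the cadherin gene CDH12 (0.47). For NCAM2 they were SPEGNB (0.42), ABCA9 (0.57) and ADARB2 (0.58), and for CNTN1 they were NYAP2 (0.27), HSD11B2 (0.32) and SEMA6B (0.35). For CNTN5 they were the transcription factor gene ISL1 (0.50), ID2, a target of BMP signaling (0.51), and FMN1 (0.51). These are descriptions, since the points share libraries and groups.

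Partners of these adhesion molecules were read from fixed lists. Counts for these lists at 6 days stand beside 31.2% of all genes called. The remaining L1-family genes, NFASC and CHL1, were both called up at 6 days of ATRA. NFASC, whose product binds contactins at the paranodal junction, rose 12.0-fold, to 1031 and 1060 CPM at 6 days against 81.8 and 88.1 CPM with DMSO (scale of all 17 libraries), and CHL1 rose 2.36-fold. In RA tumors NFASC was 1.60-fold higher than in control tumors (210.5 to 224 CPM against 108 to 159 CPM, adjusted p = 0.00328), under the fold limit.

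Of 13 tested contactin partners and ligands, 3 rose and 2 fell at 6 days (38.5% called), a share near that of all genes. CNTNAP5, a contactin-associated protein, rose 58.5-fold and TNR, the matrix ligand tenascin-R, 44.6-fold, both against DMSO levels of at most 0.187 CPM, while TNC, encoding tenascin-C, fell 4.12-fold and CNTNAP3 3.00-fold. The fall of CNTNAP3 was from 0.750 and 0.791 CPM with DMSO and rests on few counts. A list of cytoskeletal anchors held ankyrin and spectrin genes and also DCX, EZR, MSN and RDX. Of its 9 tested genes 6 were called up (66.7%) and none was called down. ANK1 was 9.09-fold and ANK3 3.84-fold higher, and RDX, encoding radixin, was 1.90-fold lower without a call. The median log2 fold change of the whole list was 1.38, against 0.04 over all genes tested. Of 8 genes of polysialic acid synthesis and removal, 3 were called (37.5%), again near the share of all genes. The polysialyltransferase genes that modify NCAM1 went apart, with ST8SIA4 2.58-fold higher and ST8SIA2 2.33-fold lower (23.8 and 27.3 CPM at 6 days against 58.2 and 58.5 CPM with DMSO), and the sialidase gene NEU4 was 9.33-fold higher. NEU4 had 2.53 and 2.54 CPM at 6 days against 0.218 and 0.312 CPM with DMSO.

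Of 16 tested signaling partners of NCAM and L1, 2 rose and 4 fell at 6 days (37.5% called, near the share of all genes). CAMK2A, a calcium-dependent kinase of neurons, reached 14.7 and 14.8 CPM against 0 and 0.191 CPM with DMSO, and GAP43, the growth cone protein, rose 2.37-fold, while FGFR2 fell 9.42-fold and ITGA5 5.25-fold. The fall of ITGA5 was from 0.625 and 0.737 CPM with DMSO and rests on few counts. Of 6 sheddases, MMP2 alone was called (16.7%, 4.18-fold up). Among 36 other neural immunoglobulin adhesion genes 9 rose and 8 fell, 47.2% called against 31.2% of all genes. HEPACAM2 rose to 44.9 and 46.7 CPM against 0.109 and 0.375 CPM with DMSO and DSCAM, a molecule of self-avoidance, 41.3-fold, while ALCAM fell 7.16-fold and SIRPA 9.90-fold. SIRPA was low, with 1.12 and 1.15 CPM with DMSO and 0.0991 and 0.128 CPM at 6 days. In RA tumors against control tumors none of these lists had a called gene, where 0.284% of all genes tested were called. Between control tumors and DMSO cells, where kit and growth setting cannot be told apart, 42.9% of all genes tested were called. There HEPACAM2 was 585-fold higher in control tumors, ALCAM was 2.26-fold lower and SIRPA was not called. DSCAM was 233-fold higher in control tumors than in DMSO cells, at 23.7 to 38.5 CPM in control tumors against 0.109 and 0.156 CPM with DMSO.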

How the data were processed

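RNA was sequenced from 8 culture libraries and 9 tumor libraries of CHP-134. The submitters' processing notes name Trim Galore 0.4.4 for trimming, STAR 2.7.10a with hg38 for alignment and RSEM 1.3.3 for gene-level quantification. The authors deposited expected counts, not normalized, in 1 table for cells and 1 for tumors. The annotation release, the strand setting in counting and any removal of mouse reads from tumor libraries are not given in the sources used here. A gene and its antisense partner may therefore share reads.

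Expected counts were rounded. Genes passed filterByExpr (minimum count 10), TMM scaling was applied, and edgeR 4.0.16 (R 4.3.3) tested each contrast by its quasi-likelihood F test with robust dispersion, 1 mean per group and no covariate. Culture libraries shared a fit (20237 genes), tumor libraries another (21098 genes) and comparisons between cells and tumors a fit of all 17 libraries (25787 genes). P-values were Benjamini-Hochberg adjusted over all genes tested, and a call needed an adjusted p under 0.05 and a log2 fold change beyond 1. The SE is the log2 fold change over the square root of F. All 10 members are named, and the partner genes named are the 2 highest and 2 lowest log2 fold changes of each list at 6 days. The scripts were tested on simulated data with known changes. Members, gene lists and tests were chosen with earlier results of these data known. Alternatives were DESeq2 1.42.0, RLE and upper-quartile scaling, no filter, protein-coding genes only, unrounded counts, a replicate block, other sets of libraries in the fit, and each replicate left out. Adding the counts of NCAM1-AS1, CNTN4-AS1 and L1CAM-AS1 to their partner genes was chosen after seeing the data. Limits from a count of 0 use 3 counts and cover counting error only. Of the 92 spike-in rows in the table of cells none entered a fit, and the ERCC spike-in of tumor libraries was not used. One marker result is not reported here.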

Additional observations from a re-analysis of the deposited data

Results flagged for a closer look

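Control tumor 3 stood apart from the other control tumors in CNTN5, with 1.40 CPM (26 expected counts) against 0.457 to 0.651 CPM in the other 4, by Dixon's test at the 95% level. It was the only such case among 20 combinations of gene and tumor group, and chance gives about 1 in 20.

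The effect in tumors differed from the effect of 6 days of ATRA in culture, by edgeR's test of the difference itself, for 6 genes. On the log2 scale the effect in tumors minus that in culture was -4.37 for CNTN2, -3.72 for NCAM2, -2.74 for CNTN3, -1.12 for CNTN1, -1.10 for L1CAM and 4.79 for CNTN5. The isomer, the dose, the time, the growth setting and the library kit differ between the arms and cannot be told apart.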

How the results depend on the processing

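Of 1188 log2 fold changes of single members under an alternative setting that could change them, 1156 kept their direction and their side of the threshold. The count of members called moved by more than 1.5 times in 1 case: for 3 days over 1 day it was 2 in place of 4 when all 17 libraries shared a fit. With each replicate left out in turn, 2 to 3 members were called at 1 day, 5 at 3 days and 6 at 6 days against DMSO, 3 to 4 for 3 days over 1 day, 4 to 5 for 6 days over 3 days, 1 between tumor groups, 6 to 7 between control tumors and DMSO cells, 8 between RA tumors and 6-day cells, and 5 to 6 for the difference of effects. Where this left a group with 1 library, that library was assumed to vary like the other groups.

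Differences that reversed were all near 0 and not called. For CNTN3 in RA tumors against control tumors the value was -0.083 with all tumors and -0.35 to 0.13 with 1 left out, positive without control tumor 3 (0.021), control tumor 4 (0.12), RA tumor 2 (0.13) or RA tumor 4 (0.092). For the difference of effects, NCAM1 was -0.095 and NRCAM -0.085 with upper-quartile scaling and -0.074 and -0.065 with protein-coding genes only, and NCAM1 was -0.049 with the NCAM1-AS1 counts added. With 1 tumor or culture library left out, the difference of effects ran from -0.11 to 0.17 for NCAM1, from -0.047 to 0.075 for NRCAM and from -0.075 to 0.25 for CNTN4. L1CAM fell just under the fold limit there without RA tumor 4 (-0.99, adjusted p = 1.19e-05). NCAM2 lost its call between control tumors and DMSO cells without the filter (1.31, adjusted p = 0.0931), without DMSO replicate 1 (0.89) and without control tumor 2 (1.12) or 4 (1.17). Causes were not tested.

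Replicate numbers in the labels did not pair the libraries: deviations of same-numbered libraries correlated at -0.03 to 0.01 in culture and -0.33 to 0.11 in tumors. With the replicate block, 2, 5 and 6 members were called at 1, 3 and 6 days, 4 and 5 for the later steps, 1 between tumor groups, 6 between control tumors and DMSO cells (NCAM2 lost, log2 fold change 0.83), 8 and 6 in the last 2 comparisons. NCAM2 in RA tumors against 6-day cells moved to -2.92 with the block, still called. The count over all genes in tumors was 60, against 12 with the block, 116 with DESeq2, 124 without the filter, 157 in the fit of all libraries and 24 to 160 with a tumor left out. At 1 day it was 554, against 338 with DESeq2 and 237 in the fit of all libraries, and for 3 days over 1 day 827, against 540 and 425. With protein-coding genes only, 4140 in place of 6304 were called at 6 days, 4694 in place of 11056 between control tumors and DMSO cells and 4983 in place of 10738 between RA tumors and 6-day cells. Upper-quartile scaling moved the median of all genes by 0.16 at 6 days and DESeq2 by 0.41 between control tumors and DMSO cells. DESeq2 put 73.3% of its calls between tumor groups on the higher side, against 86.7%. CNTN3, CNTN5, CNTN6 and NCAM2 rest on few counts, which limits their precision in tumors.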

Other observations

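Between control tumors and DMSO cells, where kit and growth setting cannot be told apart, several partner genes differed strongly. Reads from mouse tissue in the tumors may also have been counted for human genes, which was not tested. The 5 given here were chosen after their values were seen, from the genes named by the list rule. CNTNAP3, a contactin-associated protein gene, was 20.1-fold higher in control tumors (adjusted p = 4.42e-10) and 3.00-fold lower at 6 days of ATRA (adjusted p = 0.00147). ITGA5, the fibronectin receptor subunit that also binds L1CAM, was 19.7-fold higher in control tumors (adjusted p = 3.66e-12) and 5.25-fold lower at 6 days (adjusted p = 0.00012). NEU4, a sialidase gene, went the other way, 4.82-fold lower in control tumors (adjusted p = 0.00506) and 9.33-fold higher at 6 days (adjusted p = 4.1e-11). On the scale of all 17 libraries, NEU4 had 0 to 0.102 CPM in control tumors and 0.218 and 0.312 CPM with DMSO. CNTNAP3 had 0.750 and 0.791 CPM with DMSO and 0.192 and 0.330 CPM at 6 days. ITGA5 had 0.625 and 0.737 CPM with DMSO and 0.0661 and 0.192 CPM at 6 days. At such levels the folds rest on few counts. FGFR2, which NCAM1 can activate, was lower in both comparisons, 8.21-fold in control tumors (adjusted p = 2.79e-09) and 9.42-fold at 6 days (adjusted p = 7.13e-15), and ANK3 was higher in both, 4.34-fold (adjusted p = 7.83e-12) in control tumors and 3.84-fold (adjusted p = 4.18e-36) at 6 days. The comparisons share the DMSO libraries and come from separate edgeR fits. No gene of the 5 was called in RA tumors against control tumors, where 4 of them were tested and 0.284% of all genes tested were called.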
